A study of Rattus norvegicus with 3 samples.

Results

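The intercalated disc joins heart muscle cells end to end, and this account covers Tmem65 together with 9 junction genes of the disc in single-nucleus RNA sequencing of rat heart apex. The genes were chosen by name: Tmem65 (ENSRNOG00000008934), the connexin genes Gja1 (ENSRNOG00000000805) and Gja5 (ENSRNOG00000017484), the scaffold gene Tjp1 (ENSRNOG00000011077), the cadherin gene Cdh2 (ENSRNOG00000015602) and the desmosome genes Dsp (ENSRNOG00000013928), Pkp2, Jup (ENSRNOG00000015380), Dsg2 (ENSRNOG00000016526) and Dsc2 (ENSRNOG00000039969). Of these 10 genes, 9 were matched by symbol among the 22250 genes of the files, and Pkp2 was not analysed here. Tmem65 is a gene the study itself picked from these libraries, so its level is not independent evidence of its direction.

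At the disc, gap junctions made of connexins pass current between neighbouring cells, while adherens junctions and desmosomes hold the cells together and anchor actin and desmin filaments. Connexin 43, encoded by Gja1, is the main connexin of ventricular muscle, and Tmem65 encodes a membrane protein known for its association with connexin 43 at the disc. Dystrophin, the product of the Dmd gene that is mutated in these rats, links the cytoskeleton to the membrane of the muscle cell.

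Rats aged 12 months gave 1 library for each of 3 genotypes, WT, BMD and DMD, with nuclei sorted from an apex that took in septum and both ventricles. BMD rats carry an in-frame deletion in Dmd that models Becker muscular dystrophy, DMD rats carry another Dmd deletion that models Duchenne muscular dystrophy, and both lines were made by genome editing. A single library stood for each genotype, so genotypes were not tested against each other, and the 95% intervals below hold counting error alone, without the spread from animal to animal. Whether a library came from 1 animal or several is not given in the sources used here, and the kit captures transcripts in nuclei, not proteins at the disc.

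The libraries held 19215994 to 21609238 unique molecular identifiers (UMIs, counts of captured molecules), and 24664 nuclei were kept, with a median per nucleus of 1212.5 UMIs (WT), 1486.5 (BMD) and 1229 (DMD). Nuclei of all 3 libraries were clustered without the members, the other disc genes described below, Nppa, Nppb and Dmd. The genes named later for a pattern like that of Tmem65 were not left out. The class called cardiomyocyte-like below held 4684 nuclei and raised 11 of 11 cardiomyocyte markers found, among them Tnnt2, Actn2 and Tnni3. WT contributed 2050 of these nuclei, BMD 1541 and DMD 1093, at median depths of 2760.5, 3752 and 3238 UMIs. A further 7 classes had at least 50 nuclei in every library: fibroblast-like, endothelial-like, endocardial-like, lymphatic-like, pericyte-like or smooth muscle-like, macrophage-like and T cell-like nuclei. The last raised the 8 T cell markers of a list of 10 for T and B cells, and the B cell genes Pax5 and Bank1 led an unnamed cluster of 106 nuclei instead. The natural killer receptor genes Klrd1 and Ly49s6 were among the genes leading the T cell-like class, so natural killer cells were not separated from it. Pairs of libraries shared 12 to 20 cell barcodes, at most 0.294% of the smaller library. The targeted gene Dmd had 16442 CPM, meaning counts per 1000000 UMIs of the class, in WT cardiomyocyte-like nuclei, 20518 in BMD and 19415 in DMD, so its nuclear level did not mark the deletions and could not check the labels.

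In cardiomyocyte-like nuclei, Tmem65 was lower in both mutant libraries, and it was the only member at least 1.5-fold below WT in either of them. The main connexin gene Gja1, the cadherin gene Cdh2 and the desmosomal linker gene Dsp had log2 ratios over WT between -0.11 and 0.06 in both. These ratios sum nuclei of all depths, and some moved with depth. Over nuclei of all depths, Jup and Dsc2 were lower than WT in both libraries by less than 1.5-fold, although Jup in BMD passed that fold in some bins of depth, and Dsg2 was higher in DMD. No member was at least 1.5-fold higher than WT.

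**Figure D1:**
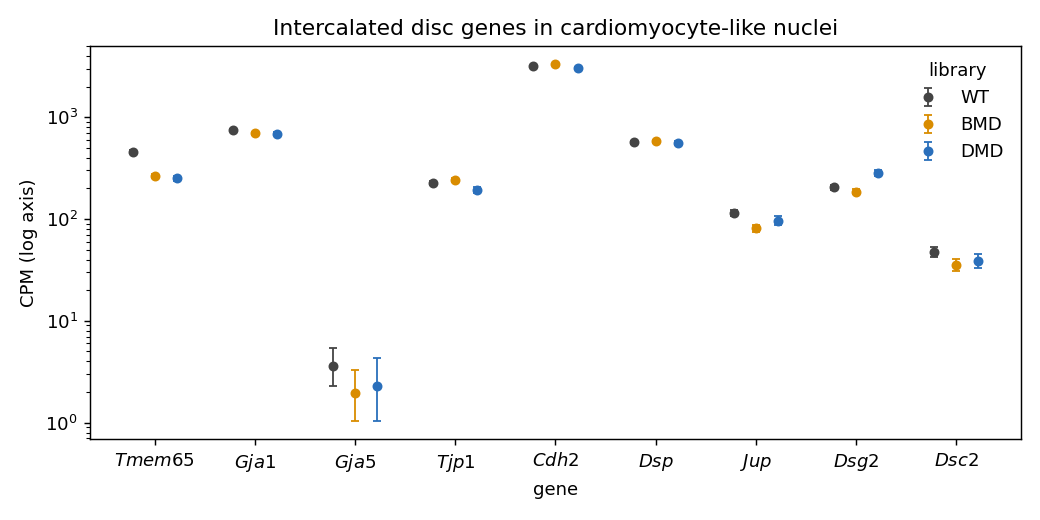
Level of 9 intercalated disc genes in cardiomyocyte-like nuclei, in CPM on a log axis, with 1 point per library and bars for the exact Poisson 95% interval. Tmem65 stands at 459 CPM in WT against 265 in BMD and 251 in DMD, whereas the points of Gja1, Cdh2 and Dsp lie close together. Levels are not per length, so heights are compared between libraries and not between genes.

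The Tmem65 level rested on 2946 UMIs for WT cardiomyocyte-like nuclei, 1772 for BMD and 992 for DMD. It was 459 CPM in WT, with an exact Poisson 95% interval of 443 to 476, against 265 CPM (253 to 277) for BMD and 251 CPM (235 to 267) for DMD. The WT interval did not overlap those of the mutants, which overlapped each other. On the scale of log2 CPM plus 5, used for every ratio here, Tmem65 in BMD was below WT with a log2 ratio of -0.78 (95% interval -0.87 to -0.70), which left 57.7% of the WT level. In DMD the log2 ratio of Tmem65 was -0.86 (-0.96 to -0.76), or 54.6% of the WT level. DMD and BMD share the WT library, and set against each other directly they gave a Tmem65 log2 ratio of -0.08 (-0.19 to 0.03).

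The background for such a difference was the 10173 genes with at least 50 UMIs over the 3 libraries in cardiomyocyte-like nuclei. Of these genes, 4.89% were at least 1.5-fold lower than WT in BMD and 5.95% in DMD. The corresponding shares of genes at least 1.5-fold higher were 4.57% in BMD and 6.26% in DMD. Among the 8 members above this minimum, 1 was lower and 0 were higher in each comparison. The member that was lower, Tmem65, had a ratio with 1.83% of all genes below it in BMD and 1.82% in DMD. Tmem65 was picked by the study from these libraries, so this rank and its place among the members called are not independent evidence. The median log2 ratio of the 8 members was -0.12 in BMD and -0.16 in DMD, beside -0.04 and -0.02 over all genes.

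**Figure D2:**
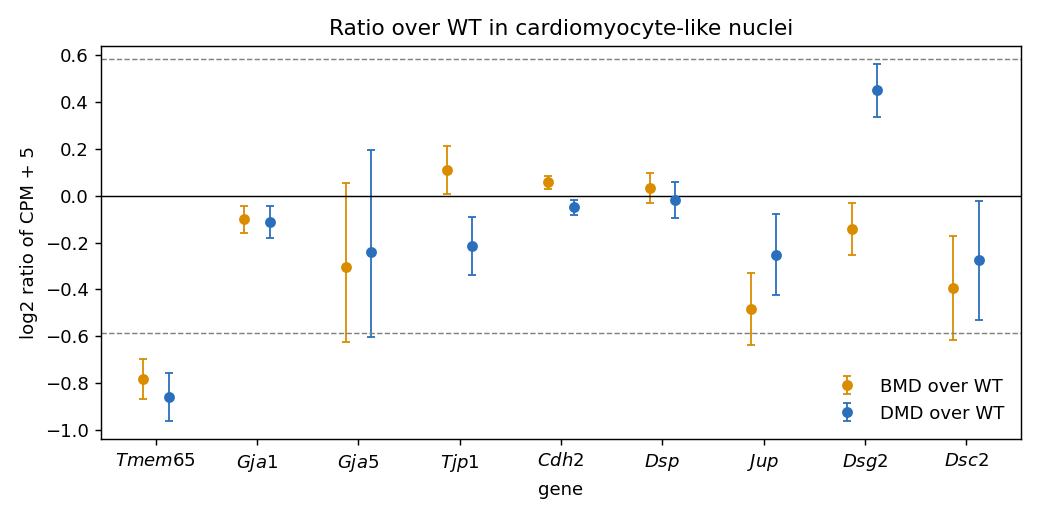
Log2 ratio of CPM plus 5 over WT in cardiomyocyte-like nuclei for 9 intercalated disc genes, in BMD and in DMD, with 95% counting intervals and dashed lines at 1.5-fold. Tmem65 lies below the lower dashed line in both comparisons, at -0.78 and -0.86, and Dsg2 lies above 0 in DMD, at 0.45, and below it in BMD, at -0.14.

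The lower Tmem65 level was seen at every depth of nucleus. Among nuclei with fewer than 2000 UMIs, Tmem65 stood at 449 CPM in WT, 216 in BMD and 237 in DMD. Among nuclei of 2000 to 5000 UMIs, it stood at 466 CPM in WT, 255 in BMD and 248 in DMD. Among nuclei of at least 5000 UMIs, it stood at 451 CPM in WT, 277 in BMD and 258 in DMD. The WT value therefore hardly moved with depth, and both mutants were below it in each of the 3 bins. The log2 ratio of Tmem65 over WT ran from -1.04 to -0.69 in BMD and from -0.91 to -0.80 in DMD.

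The share of nuclei with a Tmem65 UMI was lower in the mutant libraries. This share is counted from the same UMIs as the level and is not a second measurement. With each nucleus thinned to 500 UMIs, Tmem65 was found in 19.9% of WT cardiomyocyte-like nuclei (exact Clopper-Pearson interval 18.1% to 21.6%), in 11.6% of BMD nuclei (10.0% to 13.3%) and in 10.4% of DMD nuclei (8.68% to 12.4%). Without thinning the shares were 64.4%, 54.6% and 49.7%. Gja1 in the same thinned nuclei was found in 29.5% of WT nuclei, 27.6% of BMD nuclei and 28.8% of DMD nuclei, and these intervals overlapped. Fibroblast-like nuclei, the class with the least cardiomyocyte-marker RNA, had Tmem65 in 14.5% of WT nuclei, 10.7% of BMD nuclei and 12.0% of DMD nuclei after the same thinning. Free RNA, taken from barcodes of at most 50 UMIs, held Tmem65 at 371 CPM (WT), 265 CPM (BMD) and 168 CPM (DMD). Its part in these shares was not tested.

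Cardiomyocyte-like nuclei with a UMI of the natriuretic peptide genes Nppa or Nppb, which mark stressed heart muscle, numbered 543 beside 1379 without one in WT, 945 beside 555 in BMD and 646 beside 368 in DMD after thinning to 1000 UMIs. Tmem65 in WT was 407 CPM in nuclei with such a UMI (355 to 464) and 481 CPM in those without (445 to 519), with overlapping intervals. In BMD the 2 Tmem65 levels were 250 and 259 CPM, and in DMD 269 and 277 CPM. Both mutants were thus below WT for Tmem65 in nuclei with and in nuclei without such a UMI among the 1000 kept. A nucleus without one after thinning can still hold these transcripts, and the part of free RNA in this split was not tested. Gja1 ran from 673 to 770 CPM over the same 6 sets of nuclei.

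Gja1, the connexin 43 gene, was close to its WT level. It had 744 CPM in WT cardiomyocyte-like nuclei (723 to 766), 694 for BMD (674 to 714) and 688 for DMD (662 to 714). The log2 ratio of Gja1 was -0.10 for BMD (-0.16 to -0.04) and -0.11 for DMD (-0.18 to -0.05). Both intervals stayed below 0, and both differences were far under 1.5-fold. Among nuclei with fewer than 2000 UMIs, Gja1 was lower in BMD, at -0.39.

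Gja5, the gene of connexin 40, which is known from conduction tissue, atrial muscle and arterial endothelium, was nearly absent from the cardiomyocyte-like nuclei of this ventricular sample. Only 23 Gja5 UMIs were counted there in WT, 13 in BMD and 9 in DMD, below the minimum for a call. Tjp1 encodes the scaffold protein ZO-1, which binds connexin 43. Tjp1 stood at 225 CPM in WT (213 to 237), 243 for BMD (231 to 255) and 193 for DMD (180 to 207). DMD was lowest, and its interval overlapped neither of the others, with a log2 ratio of -0.22 over WT (-0.34 to -0.09) and 0.11 for BMD over WT (0.01 to 0.21).

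Cdh2 encodes N-cadherin, the adhesion molecule of the adherens junction. Cdh2 in cardiomyocyte-like nuclei was 3170 CPM in WT (3126 to 3213), 3299 for BMD (3255 to 3343) and 3063 for DMD (3008 to 3118). These levels were ordered BMD, WT, DMD without overlap of the counting intervals, but the log2 ratios were only 0.06 for BMD (0.03 to 0.09) and -0.05 for DMD (-0.08 to -0.02). For BMD the sign of the Cdh2 ratio turned among nuclei with fewer than 2000 UMIs, at -0.04, and with at least 5000, at -0.01. Counting intervals this narrow do not show how far 2 animals of 1 genotype would differ.

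The desmosome genes did not share 1 pattern. Dsp, which encodes desmoplakin, the link from the desmosome to desmin filaments, was 565 CPM in WT (547 to 584), 578 for BMD (560 to 596) and 558 for DMD (535 to 581). Over nuclei of all depths, its log2 ratios of 0.03 (-0.03 to 0.10) and -0.02 (-0.09 to 0.06) had intervals that included 0. The DMD ratio of Dsp changed sign with depth. It was 0.31 (0.07 to 0.54) among nuclei with fewer than 2000 UMIs and -0.19 (-0.32 to -0.06) at 5000 or more.

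Dsg2, which encodes the desmosomal cadherin desmoglein 2, was 206 CPM in WT (195 to 217), 186 for BMD (176 to 197) and 283 for DMD (267 to 300). DMD stood above both other libraries, whose intervals overlapped. The log2 ratio of Dsg2 was -0.14 in BMD over WT (-0.25 to -0.03), 0.45 in DMD over WT (0.34 to 0.56) and 0.59 in DMD over BMD (0.48 to 0.71). Dsg2 was the 1 member of 8 at least 1.5-fold higher in DMD than in BMD, where 3.62% of all genes were higher and 2.39% were lower by this fold, and 0 members were lower. After thinning, a Dsg2 UMI was found in 9.71% of WT nuclei, 7.92% of BMD nuclei and 13.1% of DMD nuclei. The DMD over WT ratio of Dsg2 was 0.56, 0.34 and 0.54 in the 3 bins of depth, from shallow to deep, whereas for BMD it was 0.28 (-0.12 to 0.67), -0.15 and -0.21.

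Jup encodes plakoglobin, which sits in both desmosomes and adherens junctions. Jup was 115 CPM in WT on 738 UMIs (107 to 124), 80.8 CPM in BMD on 541 UMIs (74.2 to 87.9) and 95.8 CPM in DMD on 379 UMIs (86.4 to 106). BMD was lowest and WT highest, and the log2 ratio of Jup was -0.48 for BMD (-0.64 to -0.33) and -0.25 for DMD (-0.43 to -0.08). The size of the BMD difference moved with depth. The log2 ratio of Jup for BMD was -0.66 (-1.30 to -0.05) among nuclei with fewer than 2000 UMIs, -0.24 (-0.46 to -0.03) from 2000 to 5000 and -0.67 (-0.93 to -0.41) at 5000 or more, so it passed 1.5-fold in the outer bins and not in the middle one.

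Dsc2, the gene of the desmosomal cadherin desmocollin 2, was 47.9 CPM in WT (42.6 to 53.5), 35.3 for BMD (30.9 to 40.1) and 38.7 for DMD (32.8 to 45.3). Its log2 ratios were -0.39 (-0.61 to -0.17) and -0.28 (-0.53 to -0.02). Dsc2 rested on 307, 236 and 153 UMIs, and the WT and DMD intervals overlapped.

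Outside cardiomyocytes the members fell into different patterns of cell type. Of the 9 members, 5 were at least 2-fold higher in cardiomyocyte-like nuclei than in all other nuclei of the same library in each of the 3 libraries, namely Gja1, Cdh2, Dsp, Dsg2 and Dsc2. Of 13359 genes with at least 50 UMIs over all nuclei, 7.13% met this rule. Cdh2 was higher in cardiomyocyte-like nuclei by 6.68-fold (WT), 6.38-fold (BMD) and 7.61-fold (DMD), and Dsg2 by 6.59-fold, 6.60-fold and 9.05-fold. The other nuclei in these folds include the 1962 nuclei left unnamed. In WT they together had 470 CPM of Cdh2, as much as endocardial-like nuclei alone (470 CPM), whereas fibroblast-like nuclei had 176 CPM. These folds are therefore not folds over any single named class. Tmem65 was 1.48-fold higher in WT but 1.09-fold in BMD and 1.07-fold in DMD. Tjp1 and Jup also lay within 1.25-fold of the other nuclei, and Gja5 was lower in cardiomyocytes than elsewhere.

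**Figure D3:**
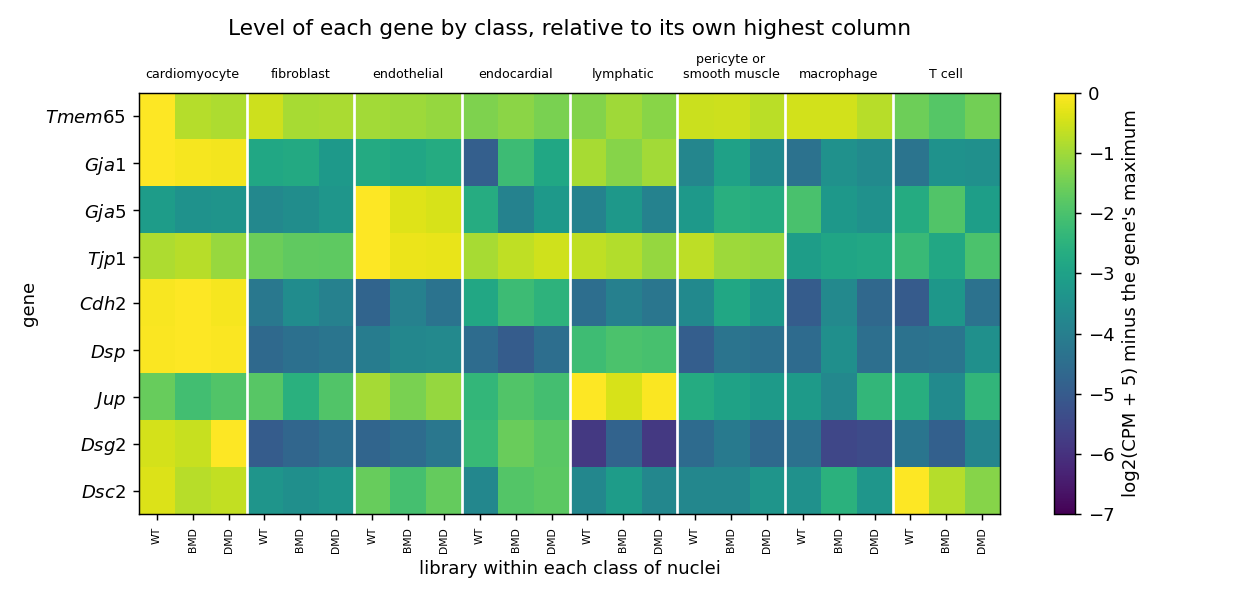
Level of 9 intercalated disc genes in 8 classes of nuclei and 3 libraries, as log2 of CPM plus 5 minus the gene's own highest value, so that 0 marks the column where a gene was highest. Gja1, Cdh2 and Dsp have their maximum in cardiomyocyte-like nuclei, Gja5 and Tjp1 in endothelial-like nuclei, Jup in lymphatic-like nuclei, and Tmem65 is spread over several classes.

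Cardiomyocyte transcripts were also counted outside cardiomyocytes. The 11 cardiomyocyte markers together had 505 CPM in WT, 918 in BMD and 818 in DMD fibroblast-like nuclei, against 24036, 27049 and 27505 CPM in cardiomyocyte-like nuclei. The level that a member would have in a class if all its cardiomyocyte-marker RNA came with the rest of the cardiomyocyte transcripts was therefore set beside the measured one. For Dsg2 in fibroblast-like nuclei this level was 101%, 103% and 103% of the measured one in WT, BMD and DMD. For Dsp there it was 63.2%, 87.4% and 66.0%. For Tmem65 it was between 3.01% and 16.1% of the measured level in all 7 other classes and 3 libraries. With the profile of free RNA in place of that of cardiomyocytes, it was between 4.48% and 23.4% of the measured Tmem65. In fibroblast-like nuclei the profile of free RNA gave 94.4% (WT), 59.6% (BMD) and 70.5% (DMD) of the measured Dsg2. For Dsp it gave 80.3%, 73.6% and 42.3%, so the part of these 2 genes beyond such RNA depended on the profile.

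Tmem65 was found in many classes. In WT it was highest in cardiomyocyte-like nuclei, followed by macrophage-like nuclei at 331 CPM (292 to 373), fibroblast-like nuclei at 315 CPM (299 to 331) and pericyte-like or smooth muscle-like nuclei at 312 CPM (272 to 357), which did not differ beyond their intervals. Endothelial-like nuclei had 231 CPM (206 to 258), and the lymphatic-like, endocardial-like and T cell-like nuclei had 184, 177 and 153 CPM with wide overlapping intervals. In BMD and DMD cardiomyocyte-like nuclei no longer had the highest Tmem65 level. It was higher in macrophage-like nuclei of BMD, at 329 CPM (289 to 373), and in DMD the levels of 278 CPM in pericyte-like or smooth muscle-like nuclei and 271 in macrophage-like nuclei had intervals that overlapped that of cardiomyocytes.

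**Figure D4:**
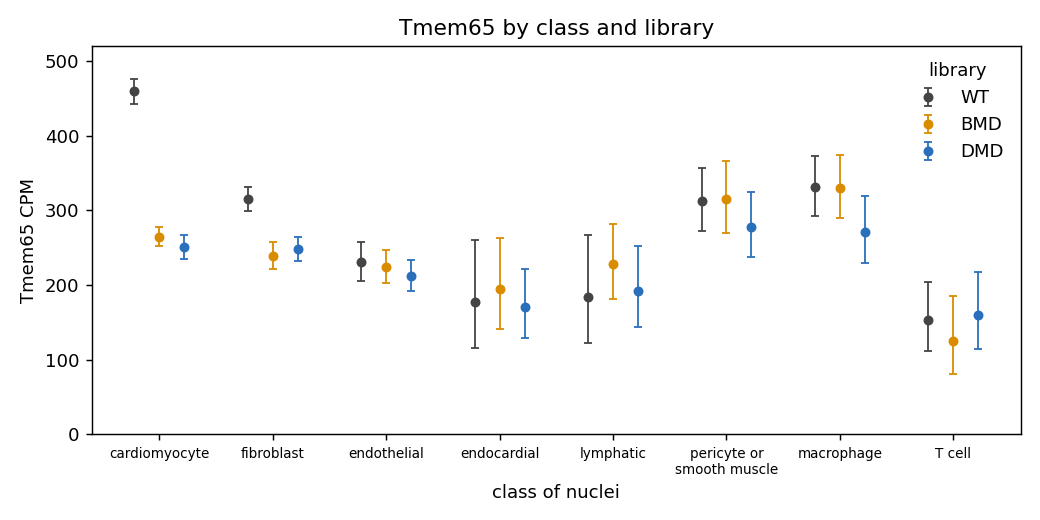
Tmem65 level in CPM in 8 classes of nuclei, with 1 point per library and bars for the exact Poisson 95% interval. The WT cardiomyocyte-like point, at 459 CPM, stands above all other points, and the mutants are below WT in cardiomyocyte-like and fibroblast-like nuclei.

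Among the other 7 classes, only fibroblast-like nuclei had Tmem65 intervals below WT in either mutant. Tmem65 there was 315 CPM in WT, 239 for BMD (222 to 258) and 248 for DMD (231 to 265), and the log2 ratios were -0.39 (-0.52 to -0.26) and -0.34 (-0.46 to -0.22). In endothelial-like nuclei, with 313 to 428 Tmem65 UMIs per library, the log2 ratios were -0.04 (-0.25 to 0.17) and -0.12 (-0.33 to 0.09). In macrophage-like nuclei they were -0.01 (-0.26 to 0.25) and -0.28 (-0.57 to 0.01). Intervals that include 0 at this depth do not show equal levels, and the difference of Tmem65 ratios between classes was not tested.

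Gja5 belonged to 1 of the 2 endothelial-like clusters. The cluster of 1075 nuclei led by Dkk2 and Sox17, the latter a transcription factor known from arteries, had 338 CPM of Gja5 in WT (271 to 416), 194 for BMD (155 to 238) and 262 for DMD (210 to 322). The larger endothelial-like cluster of 3907 nuclei, led by Unc5c and Aplnr, had 5.49, 8.65 and 8.33 CPM of Gja5. BMD was below WT in the first cluster, with a log2 ratio of -0.79 (-1.22 to -0.36), and the DMD ratio of -0.36 had an interval that included 0 (-0.79 to 0.07). The Gja5 UMIs behind these values were 89 in each library. Over all endothelial-like nuclei Gja5 was 70.0 CPM (WT), 54.7 CPM (BMD) and 51.0 CPM (DMD). There the BMD ratio of -0.33 had an interval that included 0 (-0.72 to 0.06) while the DMD ratio of -0.42 did not (-0.81 to -0.04). The cluster led by Dkk2 and Sox17 held 313 of 1547 endothelial-like nuclei in WT, 408 of 1520 in BMD and 354 of 1915 in DMD, so which mutant was clear of WT depended on the nuclei summed.

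Lymphatic-like nuclei carried Gja1, Jup and Dsp. Gja1 there was 395 CPM (WT), 307 CPM (BMD) and 377 CPM (DMD), and Jup was 368, 274 and 355 CPM, the highest of any class for Jup. Dsp in these nuclei was 125, 143 and 137 CPM, whereas cardiomyocyte RNA would give at most 18.2% of the measured Dsp. The intervals of all 3 genes overlapped between the libraries of this class, which held 142 to 257 nuclei per library.

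Endocardial-like nuclei had Cdh2 and Dsg2. Cdh2 there was 470 CPM in WT (366 to 595), 708 for BMD (601 to 828) and 589 for DMD (509 to 678), the highest of the classes other than cardiomyocytes, and Dsg2 was 54.5, 90.8 and 79.0 CPM on 8, 20 and 26 UMIs. Cardiomyocyte RNA would give 18.3% to 21.8% of that Cdh2 and 8.38% to 12.6% of that Dsg2. Tjp1 was highest in endothelial-like nuclei, at 414 CPM in WT (380 to 449), 358 for BMD (331 to 386) and 353 for DMD (328 to 380). Both mutants were lower there, with Tjp1 log2 ratios of -0.21 (-0.37 to -0.04) and -0.22 (-0.38 to -0.06).

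Dsc2 was also found in T cell-like nuclei, at 63.1 CPM in WT (38.0 to 98.6), 35.0 for BMD (14.1 to 72.1) and 23.4 for DMD (8.58 to 50.9). These Dsc2 values rest on 19, 7 and 6 UMIs with overlapping intervals, although the DMD over WT ratio of -1.26 had an interval below 0 (-2.51 to -0.05). Cardiomyocyte RNA would give at most 9.49% of them. In WT this was the highest Dsc2 level of any compared class, above the 47.9 CPM of cardiomyocyte-like nuclei, which lay within its interval. In fibroblast-like nuclei Dsc2 had 8 UMIs or fewer in each library.

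Cdh2 and Jup differed between the libraries in classes other than cardiomyocytes. Cdh2 in fibroblast-like nuclei was 176 CPM in WT against 267 in BMD and 211 in DMD, at log2 ratios of 0.59 (0.45 to 0.73) and 0.26 (0.12 to 0.40). The summed cardiomyocyte markers were also higher in BMD and DMD than in WT in that class and in each of the other 6, and their part in the Cdh2 difference was not tested. With the profile of cardiomyocytes, the Cdh2 that such RNA would carry into fibroblast-like nuclei was 66.6 CPM in WT, 112 in BMD and 91.0 in DMD. With the profile of free RNA it was 72.5 CPM (WT), 76.9 (BMD) and 50.3 (DMD). Cdh2 in BMD was above WT in each of the other 6 classes too, with an interval that included 0 in lymphatic-like nuclei only. The log2 ratio was 1.68 (1.06 to 2.32) in T cell-like and 1.25 (0.88 to 1.63) in macrophage-like nuclei. It lay between 0.51 and 0.85 in the remaining classes. In T cell-like nuclei cardiomyocyte RNA would give 116% (WT) and 76.1% (BMD) of the measured Cdh2, and free RNA 127% and 52.3%. The part of such RNA was not tested there either. Jup went the other way in BMD, from 100.1 CPM in WT to 58.1 in fibroblast-like nuclei, a log2 ratio of -0.74 (-0.98 to -0.50), and from 189 to 137 CPM in endothelial-like nuclei, a log2 ratio of -0.45 (-0.70 to -0.20). Jup in DMD had ratios of -0.08 (-0.28 to 0.11) and -0.15 (-0.38 to 0.08) in these 2 classes, so Jup was lower in BMD in cardiomyocyte-like, fibroblast-like and endothelial-like nuclei alike.

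A list of 31 other genes of the disc gave the surroundings of these members. Of these, 29 were found and 26 passed the minimum of 50 UMIs. In BMD, 1 of the 26 was at least 1.5-fold lower than WT and 3 were higher, beside 4.89% and 4.57% of all genes, and in DMD 0 were lower and 4 were higher, beside 5.95% and 6.26% of all genes. Counts of the lists within these 26 genes are read against the same shares. Their median log2 ratio was 0.00 in both comparisons.

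Most of the higher genes were scaffold and filament genes. Xirp2, which encodes an actin-binding repeat protein of the disc, was 955 CPM in WT, 2918 in BMD and 1664 in DMD, a log2 ratio of 1.61 (1.57 to 1.65) for BMD and 0.80 (0.75 to 0.85) for DMD. Flnc, the gene of the actin cross-linker filamin C, was 100.1 CPM in WT, 219 in BMD and 179 in DMD, a log2 ratio of 1.09 (0.96 to 1.22) and of 0.81 (0.66 to 0.96). Synm, the gene of the intermediate filament protein synemin, was 8.42, 31.4 and 34.1 CPM, with log2 ratios of 1.44 (1.13 to 1.74) and 1.54 (1.21 to 1.87). These were the 3 of the 11 scaffold and anchor genes past the fold in either mutant, and Xirp2 was also at least 1.5-fold lower in DMD than in BMD. Nrap, which encodes an anchor of actin filaments at the disc and had the most UMIs of the list after Xirp2, had log2 ratios of 0.21 (0.15 to 0.28) and 0.20 (0.13 to 0.27).

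Of the 8 adherens junction partners, 0 passed the fold in BMD and 1, Nectin2, a cell adhesion gene, passed it in DMD, at 11.7 CPM in WT and 21.7 in DMD (log2 ratio 0.68, 0.33 to 1.03). The most abundant partners, Ctnna1 (alpha-catenin) and Vcl (vinculin), which tie cadherins to actin, had log2 ratios of 0.06 and -0.13 in BMD and 0.23 and 0.12 in DMD. Of the other connexin genes 3 were used, and Gja3 was at least 1.5-fold lower in BMD, at 90.4 CPM in WT, 56.0 in BMD and 66.5 in DMD. Its log2 ratios were -0.64 (-0.82 to -0.47) and -0.42 (-0.62 to -0.22). Ank3, which encodes an ankyrin that anchors membrane proteins, differed from WT by a log2 ratio of 0.00 for BMD and -0.25 for DMD, and no gene of the list of channels and their anchors passed the fold.

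**Figure D5:**
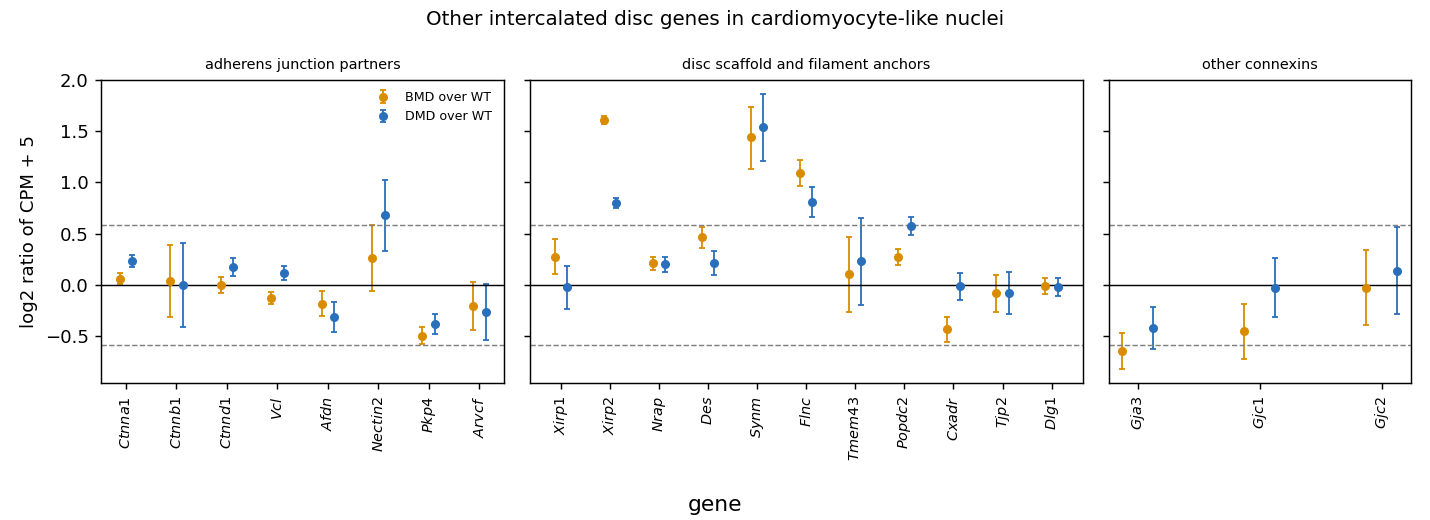
Log2 ratio of CPM plus 5 over WT in cardiomyocyte-like nuclei for other disc genes in 3 lists (adherens junction partners, scaffold and filament anchors, other connexins), in BMD and in DMD, with 95% counting intervals and dashed lines at 1.5-fold. Xirp2, Synm and Flnc lie above the upper line in both comparisons, and Gja3 lies below the lower line in BMD.

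The genes whose pattern was most like that of Tmem65 were named by Pearson correlation of log2 CPM plus 5 over 24 points, 8 classes in each of 3 libraries, among 8984 genes. The points share libraries and depth, and the values are a description. The 5 closest were Fam210b (r = 0.89), Aco1 (0.82), Map3k20 (0.82), Lrrk2 (0.80) and LOC108348070 (0.79). Fam210b, like Tmem65, was lower in mutant cardiomyocyte-like nuclei, at 13.2 CPM in WT, 5.53 in BMD and 7.83 in DMD. These values were among the points that chose it. LOC108348070 was also lower, at 9.82, 4.78 and 3.79 CPM. Aco1 (88.8, 79.9 and 73.0 CPM) and Map3k20 (423, 339 and 385 CPM) were lower by less. Lrrk2 was higher in both mutants, at 287 CPM in WT, 343 in BMD and 342 in DMD. The 7 other members with enough UMIs had r between -0.23 and 0.27 with Tmem65 over these points, so none of them was among the 5 closest genes.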

How the data were processed

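Nuclei of 1 WT, 1 BMD and 1 DMD library were analysed. The values are the UMI counts per gene and barcode that the authors deposited, made with Cell Ranger on build rn6 per the submitters' processing notes. The counting of introns is not given in the sources used here. A 3′ kit is named in the labels and a 5′ one in part of the study's text, and 3′ capture was assumed. The WT file was an aggregate of all 3 libraries, from which only WT barcodes were used. In that aggregate the BMD and DMD barcodes kept 76.1% and 92.9% of the UMIs of their own files. Whether the WT counts were thinned there as well is not known. The header of the WT file names another Cell Ranger version than those of the BMD and DMD files, and an effect on the WT counts was not tested.

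Nuclei were the deepest barcodes of each library, as many as the study counted (9964 WT, 6810 BMD, 7890 DMD). Clusters came from 2000 variable genes, 30 components, 15 neighbours and Leiden resolution 0.5 (scanpy 1.11.5, igraph 0.11.9), without mitochondrial genes, sex genes, members, other disc genes, Nppa, Nppb, Myh6, Myh7, Ryr2 and Dmd. No doublet filter was applied. A marker counted at 2-fold over all other nuclei with at least 10 UMIs, and 3 markers were needed for a name. The class named from the list for T and B cells is called T cell-like, after the markers it raised. Rules added after the data were seen also asked for 50% of the markers found, fewer than 5 markers of an unrelated class, and no lead by mitochondrial genes. Together these rules left 1962 nuclei unnamed, of which 687 already failed the rule of 3 markers. Schwann-like and monocyte-like nuclei were too few to compare.

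UMIs were summed per class and library and scaled to CPM by the class total, which for cardiomyocyte-like nuclei was 6415614 (WT), 6692614 (BMD) and 3957728 (DMD) UMIs. Ratios are log2 of CPM plus 5, and a call is a fold of 1.5 without a p-value. Intervals are exact Poisson, Clopper-Pearson or conditional binomial (scipy 1.17.1). The named genes were all members, other disc genes past the fold or with the most UMIs in their list (1 such gene is not reported here), the 5 genes most like Tmem65, and Dmd. Members and lists were chosen with earlier results of these data known. The ratio and interval functions were checked on simulated counts in which 200 genes were changed. Alternatives were other nuclei, clusterings, scalings (edgeR 4.0.16), pseudocounts and filters, subtraction of free RNA, and the thinned counts of the aggregate.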

Additional observations from a re-analysis of the deposited data

Results flagged for a closer look

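Some members lay on opposite sides of WT in cardiomyocyte-like nuclei and in another class, with both counting intervals clear of 0. With 1 library per genotype the difference between the classes was not tested, and the summed cardiomyocyte markers were higher in the mutants in each of these other classes. Cdh2 in DMD had a log2 ratio over WT of -0.05 in cardiomyocyte-like nuclei but of 0.43 in endothelial-like, 0.26 in fibroblast-like and 0.39 in pericyte-like or smooth muscle-like nuclei. Cardiomyocyte RNA alone would give 118 of the 117 CPM of Cdh2 measured in WT endothelial-like nuclei and 145 of 160 CPM in DMD. With the profile of free RNA, these values were 128 CPM in WT and 79.9 CPM in DMD. In fibroblast-like and pericyte-like or smooth muscle-like nuclei, cardiomyocyte RNA would give 37.9% to 43.1% of the measured Cdh2 in WT and DMD. The profile of free RNA gave 23.6% to 46.7% there. The part of such RNA in these differences was not tested. Gja1 in BMD had -0.10 in cardiomyocyte-like nuclei but 2.69 in endocardial-like, 0.90 in macrophage-like and 0.80 in pericyte-like or smooth muscle-like nuclei. Gja1 in DMD had -0.11 against 2.05 in endocardial-like and 0.73 in macrophage-like nuclei, the latter with an interval of 0.00 to 1.45 after rounding. The endocardial-like Gja1 values rest on only 3 WT, 35 BMD and 33 DMD UMIs, so their intervals are wide (1.22 to 4.23 and 0.58 to 3.60). In WT, cardiomyocyte RNA would give 118% of the measured Gja1 in endocardial-like, 63.1% in macrophage-like and 51.3% in pericyte-like or smooth muscle-like nuclei. In the same order it would give 17.9%, 57.4% and 47.6% in BMD and 24.1%, 51.3% and 59.6% in DMD. The profile of free RNA gave 190%, 102% and 82.9% in WT, 17.6%, 56.5% and 46.9% in BMD, and 25.2%, 53.7% and 62.5% in DMD. The part of such RNA in the Gja1 differences was not tested. Jup in DMD had -0.25 against 0.82 in macrophage-like nuclei, on 29 UMIs in WT and 37 in DMD. The summed endothelial markers in macrophage-like nuclei were 605 CPM in WT and 1299 in DMD, and the fibroblast markers 707 and 1198 CPM. Those of pericytes or smooth muscle went the other way, at 178 and 156 CPM. The part of RNA from other classes in this Jup difference was not tested. Tjp1 in BMD had 0.11 in cardiomyocyte-like nuclei against -0.21 in endothelial-like nuclei.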

How the results depend on the processing

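No paired analysis was possible because each genotype has 1 library, and no library could be left out. The log2 ratio of Tmem65 over WT stayed below 0 under every alternative. It moved outside its counting interval over all nuclei of a library (-0.52 in BMD, -0.60 in DMD) and, in BMD, in nuclei of under 2000 UMIs (-1.04) and of at least 5000 (-0.69). Within cardiomyocyte-like nuclei its range was -1.04 to -0.69 in BMD and -0.91 to -0.80 in DMD. The count of members at least 1.5-fold lower in BMD was 2 with free RNA subtracted, when Jup reached -0.59, and also 2 in nuclei of under 2000 UMIs (Jup at -0.66) and of at least 5000 (Jup at -0.67), bins that were applied to members other than Tmem65 after seeing the data. It was 0 over all nuclei, and the other counts of members were 1 lower in DMD and 0 higher under all alternatives. Over all nuclei, where the share of cardiomyocytes differs between libraries (20.6% in WT, 22.6% in BMD and 13.9% in DMD), Gja1 in BMD turned to 0.073 and Dsg2 in BMD to 0.036, while in DMD Dsg2 fell to 0.094 and Gja1, Cdh2 and Dsp reached -0.36, -0.34 and -0.30. In nuclei of under 2000 UMIs, Cdh2 in BMD turned to -0.037 and Dsg2 in BMD to 0.281, and in those of at least 5000 UMIs Tjp1 in BMD turned to -0.015 and Cdh2 in BMD to -0.006. Dsp in DMD was 0.308 in nuclei of under 2000 UMIs and -0.188 in those of at least 5000. The causes were not tested. Subtracting free RNA took every listed marker of another class in cardiomyocyte-like nuclei as free RNA, an estimate of 12.9% of their UMIs (WT), 18.9% (BMD) and 9.77% (DMD). Dsg2 in DMD ran from 0.34 to 0.56 within cardiomyocyte-like nuclei. An unnamed cluster of 687 nuclei with many UMIs raised 0 of the 11 cardiomyocyte markers found. Counting it with the cardiomyocytes, a choice made after seeing the data, gave -0.77 and -0.80 for Tmem65. Depth limited Gja5 in cardiomyocytes and most members in endocardial-like and lymphatic-like nuclei.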
